A study of Mus musculus with 4 samples.

Results

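The genes described here encode the core of the spliceosome, the machine that removes introns from messenger RNA precursors. They are the Sm and LSm ring proteins, the proteins of the U1, U2, U4, U5 and U6 small nuclear ribonucleoproteins (snRNPs), the SF3A and SF3B complexes, U2AF, the Prp19 complex and the recycling helicase Dhx15. The members were taken from a list of 40 gene symbols, and all 40 were found among the 22011 genes of the deposited tables. For 8 members with several RefSeq transcripts, the transcript used was the one whose reads, summed over the 4 libraries, were most numerous.

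Ribosome-depleted RNA was sequenced from 2 fetal liver cell samples labelled hnRNP L -/- (KO) and 2 labelled wild type (WT). hnRNP L is an RNA-binding protein that controls alternative splicing, and the liver makes most blood cells of the fetus. The strains that the labels' husbandry notes name (CD45.1, C57BL/6, LckCre transgenic and a tdTomato and EGFP reporter at the ROSA26 locus) are not tied to single samples. Lck drives Cre in T cells. Neither the type of hnRNP L allele nor the age of the fetuses is stated in the labels. Nothing in the labels ties a library to a litter or a culture, so the p-values rest on how far these 4 libraries vary, which may in part be technical. The libraries were run in pairs on sequencing slides, and the labels do not say which libraries shared a slide. Each of 2 numbers in the file names is shared by 1 KO and 1 WT library, but nothing ties these numbers to slides, so the part of the slide in any difference was not tested.

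Mapped reads numbered 97490949 and 96260423 in the KO libraries and 70020061 and 111324295 in the WT libraries. The targeted gene, Hnrnpl, was at 280 and 269 CPM (counts per 1000000 reads on scaled library sizes) in KO and at 460 and 603 CPM in WT, so transcript remained in both KO libraries (log2 fold change -0.95, SE 0.16, edgeR adjusted p = 0.0114). Xist and Ddx3y set KO replicate 2 apart as the library with male-type levels, with Xist at 952 and 6.55 CPM in KO and at 975 and 929 CPM in WT; all 40 members lie on autosomes. WT replicate 1 was the shallowest library, and 3.03% of its junction reads over all genes fell on putative junctions, against 0.643% to 0.725% in the other 3. None of the marker genes found in the files lacked reads in all 4 libraries. Summed erythroid markers were at 17430 to 22603 CPM in KO and 32534 to 32777 CPM in WT, with 13 of 19 lower. Summed hepatocyte markers were at 75981 to 92649 CPM in KO and 43934 to 60701 CPM in WT, with 5 of 16 higher. Afp and Alb, the largest parts of the hepatocyte sum, did not pass (edgeR adjusted p of 0.0883 and 0.132). Summed cardiac muscle markers were at 4.05 and 6.63 CPM in KO and 57.7 and 355 CPM in WT, with 9 of 9 tested lower. Over all genes tested, 11.4% were higher and 9.44% lower at an edgeR adjusted p under 0.05.

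In splicing, the U1 snRNP binds the start of an intron and U2AF the pyrimidine tract before its end. The U2 snRNP, with SF3A and SF3B, then settles on the branch site, and the joined U4, U5 and U6 snRNPs enter with the large proteins Prpf8, Snrnp200 and Eftud2. The Prp19 complex helps to form the active site, and helicases take the machine apart. The 7 Sm proteins form a ring on the U1, U2, U4 and U5 RNAs, and a related ring of LSm proteins holds the end of U6 RNA. Blood-forming cells are known to be sensitive to changes in several of these genes, since SF3B1 and U2AF1 are recurrently mutated in human myeloid disease.

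The 5 members past the threshold were Sf3a2, Snrpb, Lsm6, Snrpe and Snrnp40, and the windows around the start sites of Sf3a2, Snrpe and Lsm6 are shown because these members moved in opposite directions. They are RefSeq sequences of build GRCm38.p6, from 250 bases before to 50 bases after the start, written 5′ to 3′ on the strand of the gene. Capitals mark letters of the motifs searched on both strands. The site of ETS factors was searched as CCGGAAG and the GC box as GGGCGG. The CCAAT box was searched by those letters, the YY1 site as AAGATGGC, the E-box as CACGTG and the TATA box as TATAAA, and the core of the NRF1 motif was searched too.
Sf3a2, chr10:80798485-80798784, plus strand: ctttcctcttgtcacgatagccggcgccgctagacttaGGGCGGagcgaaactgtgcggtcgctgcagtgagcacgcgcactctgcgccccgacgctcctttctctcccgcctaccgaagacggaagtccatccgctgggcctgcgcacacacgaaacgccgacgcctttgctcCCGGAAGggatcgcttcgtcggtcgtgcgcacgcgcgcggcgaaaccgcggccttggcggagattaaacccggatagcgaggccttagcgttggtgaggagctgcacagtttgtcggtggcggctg
Snrpe, chr1:133610231-133610530, minus strand: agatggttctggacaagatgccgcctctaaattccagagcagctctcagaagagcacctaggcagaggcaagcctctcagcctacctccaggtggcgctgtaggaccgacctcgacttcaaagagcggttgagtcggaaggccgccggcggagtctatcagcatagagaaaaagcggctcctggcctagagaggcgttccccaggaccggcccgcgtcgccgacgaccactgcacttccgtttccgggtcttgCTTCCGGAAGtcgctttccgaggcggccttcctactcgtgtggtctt
Lsm6, chr8:78821103-78821402, minus strand: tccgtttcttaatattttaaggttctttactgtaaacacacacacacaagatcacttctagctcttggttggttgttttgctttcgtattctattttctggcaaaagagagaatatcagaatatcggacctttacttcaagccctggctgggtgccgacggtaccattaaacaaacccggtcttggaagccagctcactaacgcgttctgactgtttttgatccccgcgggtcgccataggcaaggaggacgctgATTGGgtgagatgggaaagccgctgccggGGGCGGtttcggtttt
Sf3a2 held an ETS match and a GC box. Snrpe held an ETS match on each strand, in overlapping letters, and Lsm6 a GC box and a CCAAT box. Of the 40 members, 31 had an entry, with 38 windows in all; the others were Snrpb, Snrnp40, Sf3b4, Sf3b5, Eftud2, Snrpd1, Ddx23, Lsm4 and U2af2. CCGGAAG was in 39.5% of the members' windows, 8.86% of all 32851 windows and 11.6% of the windows of protein-coding genes. GGGCGG was in 55.3% of the members' windows and 46.2% of those of protein-coding genes, CCAAT in 47.4% and 38.2%, AAGATGGC in 7.89% and 3.05%, CACGTG in 10.5% and 7.84% and TATAAA in 5.26% and 12.6%. The NRF1 core was in none of the members' windows and in 1.33% of those of protein-coding genes. The share of G and C was 65.0% in the Sf3a2 window, 60.3% in that of Snrpe and 47.7% in that of Lsm6, beside a median of 58.3% over the members' windows and 52.7% over all.

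Most members had small negative log2 fold changes, and 2 members rose in KO. All 40 passed the filter on low counts. Of these, 2 rose, 3 fell and 35 did not pass the threshold of an adjusted p of 0.05 in the edgeR quasi-likelihood test over 15028 genes. That is 12.5% called, under the 20.8% called over all genes (11.4% higher and 9.44% lower). At an unadjusted p under 0.05, 3 members were higher and 12 lower, beside 2982 higher and 2634 lower of all 15028 genes. The log2 fold change was negative for 32 members and had a median of -0.22, with quartiles of -0.32 and -0.11, beside a median of 0.02 over all genes. Both KO libraries lay below both WT libraries for 23 members and above them for 7. Over all genes the KO libraries lay below in 31.7% and above in 33.5%. In bulk RNA, fewer cells of a type and less RNA per cell cannot be told apart. Over all genes, each fit without 1 library called fewer genes in each direction than the fit with all 4 libraries. Without WT replicate 2, which had the highest mean log2 CPM of the members, the median was -0.15 and no member fell, and without WT replicate 1 the median was -0.31 with 1 rise and 1 fall; without KO replicate 2 there were also 1 rise and 1 fall, and without KO replicate 1 there were 2 rises and 6 falls. Of the members that did not pass, 7 were called under at least 1 of the alternative settings. These were Snrpd1 and Eftud2 under 4 settings each (lowest adjusted p of 0.00949 and 0.0100), Sf3b5 under 3 (lowest 0.0201), and Snrpg, Lsm4, Plrg1 and Sf3b4 under 2 each (lowest 0.0422, 0.0409, 0.0376 and 0.0302). Sf3b4 was higher in KO and the other 6 lower. Over all genes the alternative settings gave at most 2494 higher and 1999 lower, against 1711 and 1419 with the main setting.

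**Figure D1:**
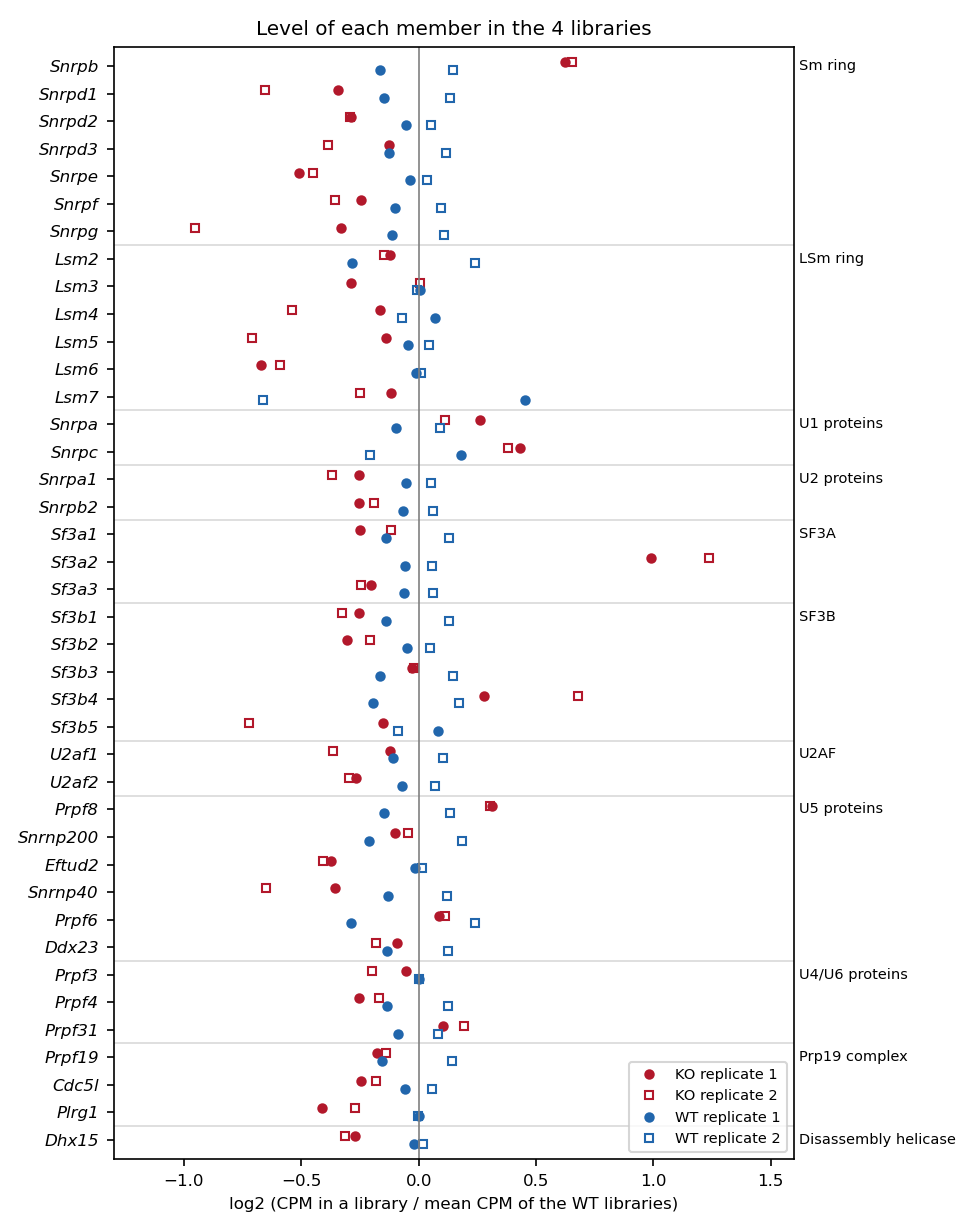
CPM of each member in each library, as log2 of the ratio to the mean of the WT libraries, for KO replicates (red) and WT replicates (blue), with members ordered by role. Sf3a2 and Snrpb stand to the right of the WT libraries, and for 23 members both KO libraries stand to the left of both WT libraries.

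Taken as a share of all transcript reads, the members did not differ beyond the spread of the WT libraries. They took 0.485% and 0.509% of the reads in KO, against 0.452% and 0.533% in WT. The KO shares lay between those of WT. This sum is led by the most abundant members, among them Prpf8, which stood higher in both KO libraries.

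Among the Sm ring genes, Snrpb rose while the other 6 had negative log2 fold changes. Snrpb encodes SmB, a ring subunit with a long proline-rich tail (NM_009225, chr2:129997372-130005100, minus strand, in the build of the files, which they do not name). It was at 198 and 202 CPM in KO, against 115 and 143 CPM in WT. Both KO libraries were above both WT libraries, and the fold change was 1.56 (log2 fold change 0.64, SE 0.13, edgeR adjusted p = 0.0192). Leaving out KO replicate 2 ended the call (edgeR adjusted p = 0.0657), as did leaving out WT replicate 1 (edgeR adjusted p = 0.0888). Snrpn, a close copy of Snrpb that is no member, was at 9.52 and 10.7 CPM in KO and 5.94 and 7.18 CPM in WT (edgeR adjusted p = 0.0489), and reads that match both copies make both values uncertain.

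Snrpe, which encodes the ring subunit SmE (NM_009227, chr1:135500448-135506857, minus strand), fell. It was at 34.2 and 35.7 CPM in KO, against 47.5 and 49.9 CPM in WT, with no overlap (log2 fold change -0.48, SE 0.11, edgeR adjusted p = 0.0242). This call was lost whichever library was left out (edgeR adjusted p of 0.0632 to 0.111). Snrpd1, the SmD1 gene, was at 35.9 and 28.9 CPM in KO and 41.1 and 49.9 CPM in WT, and its test fell just short of the threshold (log2 fold change -0.49, SE 0.15, edgeR adjusted p = 0.0570). Snrpg, the SmG gene, had a log2 fold change of -0.61 but a wide error (SE 0.24, edgeR adjusted p = 0.113). Its levels were 5.91 and 3.84 CPM in KO and 6.87 and 8.01 CPM in WT. Snrpd2, Snrpd3 and Snrpf were at -0.29, -0.25 and -0.30 and did not pass.

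Of the 6 LSm ring genes among the members, which are not said to be the whole ring, all had negative log2 fold changes and 1 passed. Lsm6 (NM_001191004, chr8:81328767-81345051, minus strand) fell. It was at 19.9 and 21.1 CPM in KO, against 31.5 and 32.0 CPM in WT, and the spread within each group was small beside the gap (log2 fold change -0.63, SE 0.12, edgeR adjusted p = 0.0149). Leaving out either WT library ended the call (edgeR adjusted p = 0.0524 without replicate 1 and 0.0671 without replicate 2). It was also lost when known junction reads were used in place of transcript reads (log2 fold change -0.39, edgeR adjusted p = 0.312). Lsm4 was at -0.34 and Lsm2 and Lsm3 at -0.14 and -0.13. Lsm5 and Lsm7 had so few transcript reads that their values were uncertain. Lsm5 was at 1.19 and 0.80 CPM in KO and 1.27 and 1.35 CPM in WT, and Lsm7 at 0.81 and 0.74 CPM in KO and 1.21 and 0.56 CPM in WT.

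The 2 members among the U1 protein genes both stood higher in KO, though neither passed. Snrnp70, a U1 gene that is no member, was level between the groups. It was at 131 and 121 CPM in KO and 127 and 126 CPM in WT (log2 fold change -0.0029, edgeR adjusted p = 0.987). Snrpa, whose product binds a stem-loop of U1 RNA, was at 50.9 and 45.9 CPM in KO and 39.7 and 45.1 CPM in WT (edgeR adjusted p = 0.298). Snrpc, the gene of the U1 C protein, which steadies the pairing of U1 with the intron start, was at 4.6 and 4.45 CPM in KO and 3.87 and 2.95 CPM in WT (log2 fold change 0.41, SE 0.23, edgeR adjusted p = 0.235). The U2 protein genes Snrpa1 and Snrpb2 had log2 fold changes of -0.31 and -0.22, and the KO libraries were below the WT libraries for both. U2af2 and U2af1, the large and small subunits of U2AF, were at -0.28 and -0.24, again with the KO libraries below.

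In SF3A, the trimer that joins U2 to the branch site region, Sf3a2 rose more than any other member. Sf3a2 (NM_013651, chr10:80261480-80267667, plus strand) was at 49.8 and 59.1 CPM in KO, against 24.0 and 26.0 CPM in WT. Both KO libraries were above both WT libraries, with means of 54.4 ± 6.59 CPM in KO and 25.03 ± 1.43 CPM in WT (SD, n = 2 each). The fold change was 2.17 (log2 fold change 1.12, SE 0.13, edgeR adjusted p = 0.00663). Over 11 alternative settings, each of which kept the call, the log2 fold change ranged from 0.99 to 1.23 and the adjusted p from 2.26e-09 to 0.0222. Its partners in the trimer, Sf3a1 and Sf3a3, were at -0.18 and -0.22 and did not pass.

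In SF3B, the complex that holds the branch site adenosine, no member passed. Sf3b4 was at 14.9 and 19.6 CPM in KO and 10.7 and 13.8 CPM in WT, with the KO libraries above (log2 fold change 0.49, SE 0.20, edgeR adjusted p = 0.114). Sf3b1, the scaffold of the complex, had a log2 fold change of -0.29, Sf3b2 of -0.26, Sf3b5 of -0.41 and Sf3b3 of -0.03. Sf3b5 was at 76.1 and 51.2 CPM in KO and 89.7 and 79.5 CPM in WT, and without KO replicate 1 it passed as lower (log2 fold change -0.73, edgeR adjusted p = 0.0201).

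Among the U5 genes, Snrnp40 fell and the others did not pass. Snrnp40, which encodes a WD-repeat protein of U5 (NM_025645, chr4:130037379-130067278, plus strand), was at 82.7 and 67.4 CPM in KO, against 96.7 and 115 CPM in WT (log2 fold change -0.50, SE 0.14, edgeR adjusted p = 0.0441). The groups did not overlap, but leaving out replicate 2 of KO (edgeR adjusted p = 0.187) or of WT (edgeR adjusted p = 0.197) ended the call. Eftud2, the gene of the U5 GTPase, was at 239 and 233 CPM in KO and 306 and 313 CPM in WT, next to the threshold (log2 fold change -0.39, SE 0.12, edgeR adjusted p = 0.0507). Prpf8, the gene of the scaffold around the active site, was at 948 and 942 CPM in KO and 688 and 836 CPM in WT. Its KO libraries were above both WT libraries by less than the fit required (log2 fold change 0.31, SE 0.16, edgeR adjusted p = 0.196). The helicase genes Snrnp200 and Ddx23 and the bridging factor gene Prpf6 had log2 fold changes of -0.07, -0.14 and 0.10, with overlapping groups.

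The U4/U6 and Prp19 members and Dhx15 did not pass. Prpf3, Prpf4 and Prpf31, whose products hold U4 and U6 together, were at -0.12, -0.21 and 0.15. In the Prp19 complex, Plrg1 was at 85.5 and 94.3 CPM in KO and 114 CPM in each WT library (log2 fold change -0.34, SE 0.11, edgeR adjusted p = 0.0595), and Cdc5l and Prpf19 were at -0.21 and -0.16. Dhx15, the helicase that disassembles spent spliceosomes, was at 333 and 322 CPM in KO and 395 and 407 CPM in WT (log2 fold change -0.29, edgeR adjusted p = 0.128).

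Levels between members can be set side by side only per length. On the RPKM scale (reads per kilobase of transcript and per 1000000 mapped reads, made by the authors), the members had a median of 21.2, beside 3.67 over the genes tested, and 29 members were above 10 RPKM. The order was led by Snrpb at 91.6 RPKM in KO and 55.4 RPKM in WT, by Dhx15 at 55.7 RPKM in KO and 64.0 RPKM in WT, and by Prpf8 at 64.6 RPKM in KO and 49.1 RPKM in WT (means, n = 2 each). By RPKM, Snrpb was thus the highest member in KO, while in WT Dhx15 and Snrpb did not differ beyond the spread of the WT libraries. The lowest were Snrpc at 3.04 RPKM in KO and 2.14 RPKM in WT, Lsm5 at 1.01 RPKM in KO and 1.26 RPKM in WT, and Lsm7 at 0.85 RPKM in KO and 0.89 RPKM in WT.

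**Figure D2:**
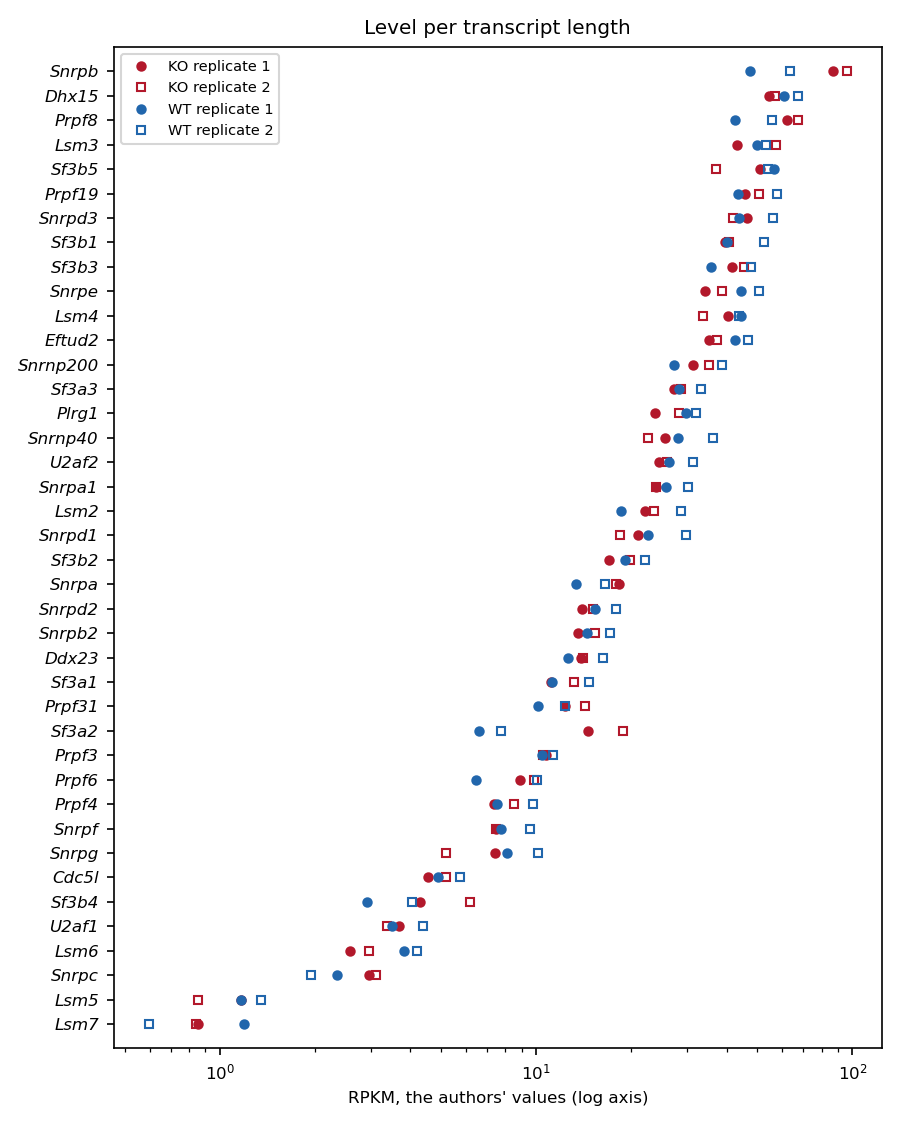
RPKM of each member in each KO (red) and WT (blue) library on a log axis, ordered by the mean over the 4 libraries. Snrpb leads the order, Lsm7 ends it, and for most members the gap between KO and WT is small beside the range between members.

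In 5 members (Snrpg, Snrpc, U2af1, Lsm5 and Lsm7), reads on known splice junctions outnumbered the reads on the whole transcript, by 2.57 to 1 for Lsm5 and 2.53 to 1 for U2af1; the same held for 1.02% of the genes tested. The junction tables are a separate count whose filters the files do not state, and transcript reads were kept only above a minimum mapping quality. By reads per known junction and per 1000000 known junction reads, Snrpg stood at 25.2 in KO and 32.8 in WT, the fifth highest of 39 members with junctions, though it was number 33 by RPKM. Snrpe stood at 55.6 in KO and 80.7 in WT and was the highest. Sf3b5 has no known junction in the files. Snrpf and Snrpe had 0.999 and 0.961 junction reads per transcript read, beside a median of 0.20 over the members. Snrpf was number 32 by RPKM and number 4 by reads per junction. The RPKM levels of Snrpg, Snrpc, U2af1, Lsm5, Lsm7, Snrpf and Snrpe are therefore uncertain, while their fold changes compare each gene with itself.

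Known junction reads gave a second readout of the fold changes, from the same libraries. The sign matched for 37 of 39 members, and the median absolute difference in log2 fold change was 0.08. By this readout Sf3a2 was at 1.22 (SE 0.20, edgeR adjusted p = 0.00327) and Snrpb at 0.64 (SE 0.15, edgeR adjusted p = 0.0148), and both rose. Snrpe was at -0.62 (edgeR adjusted p = 0.0203) and Snrnp40 at -0.58 (edgeR adjusted p = 0.0414), and both fell. The widest difference was that of Lsm7, which was at -0.54 by junction reads and -0.15 by transcript reads.

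**Figure D3:**
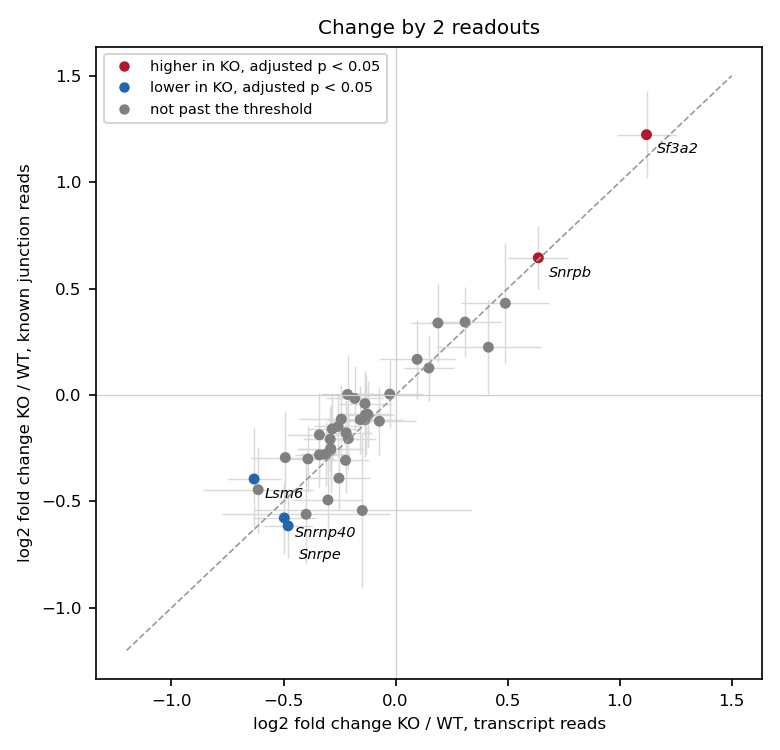
Log2 fold change of KO over WT from known junction reads (y axis) against that from transcript reads (x axis) for the 39 members with junctions, with standard errors as bars and the line of equality dashed. Sf3a2 and Snrpb lie at the upper right by both readouts.

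Use of single junctions within the members did not change detectably. Of 467 known junctions in these genes, 465 had a read and 459 entered the usage test, which sets each junction against the remaining junctions of that gene. None passed by diffSpliceDGE of edgeR, and 5 had an unadjusted p under 0.05. Over all genes 2 of 103333 junctions passed (0.00194%), so the test made few calls anywhere in these libraries. The smallest p-values were for a junction of Prpf19, the gene of the ubiquitin ligase that names the Prp19 complex, and for junctions of Sf3b2 and Cdc5l.

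The Prpf19 junction (chr19:10972383-10973473) had 40 and 32 reads in KO and 60 and 83 reads in WT. This was 2.01% and 1.33% of the gene's known junction reads in KO, against 4.24% and 2.76% in WT (log2 usage change -1.05, edgeR adjusted p = 1.00). The Sf3b2 junction (chr19:5293319-5294299) had 55 and 61 reads in KO and 29 and 22 in WT, or 4.95% and 4.73% of its gene in KO and 3.49% and 1.37% in WT (edgeR adjusted p = 1.00). The Cdc5l junction (chr17:45564991-45570340) had 7 and 8 reads in KO and 16 and 22 in WT (edgeR adjusted p = 1.00). In all 3 the groups did not overlap, but the 3 were picked for their small p-values, so this adds no support. None of these differences passed after adjustment over all junctions tested.

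In its known junctions, U2af1 has a pair of exons used in place of each other, and reads on these junctions can be assigned to either. A putative junction (chr17:31788657-31789447) that joins the 2 exons to each other had 3 and 13 reads in KO and 6 and 6 in WT. It is not part of the counts below. The exons are 67 bases long and differ at 23 positions; their sequences, read from the GENCODE vM21 transcripts (build GRCm38, minus strand) that GENCODE pairs with the RefSeq transcripts of the files, are shown with the differing bases in capitals because the choice between them sets which form of the small U2AF subunit is made. The files place the upstream exon at chr17:31789447-31789513 and the downstream exon at chr17:31788591-31788657.
U2af1 upstream exon, chr17:31652502-31652568: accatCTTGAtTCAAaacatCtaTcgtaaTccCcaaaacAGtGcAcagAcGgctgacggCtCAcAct
U2af1 downstream exon, chr17:31651646-31651712: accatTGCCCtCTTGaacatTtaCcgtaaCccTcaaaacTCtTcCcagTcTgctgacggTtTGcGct
The junctions of the upstream exon had 86 and 54 reads in KO and 56 and 103 in WT, and those of the downstream exon 317 and 479 reads in KO and 203 and 452 in WT. By these junction reads the downstream exon led in each library. The transcript table orders the isoforms the other way: the isoform with the upstream exon had 326 and 295 reads in KO and 222 and 442 in WT, and that with the downstream exon 218 and 284 reads in KO and 136 and 345 in WT. The U2af1 levels above are those of the upstream-exon isoform, which was used because it had more transcript reads. How the authors divided reads common to both isoforms is not stated, so which exon leads is uncertain. By junction reads, the upstream exon took 21.3% (95% Wilson interval 17.6 to 25.6) and 10.1% (7.85 to 13.0) in KO, against 21.6% (17.04 to 27.0) and 18.6% (15.5 to 22.01) in WT. The intervals cover counting error only, and PCR copies are not independent molecules. The means were 15.7% ± 7.93 in KO and 20.1% ± 2.17 in WT (SD, n = 2 each). The 2 junctions of the upstream exon were unevenly read. Its 5′ junction had 67 and 54 reads in KO and 54 and 79 in WT, and its 3′ junction 19 and 0 in KO and 2 and 24 in WT. The low share of KO replicate 2 thus includes a 3′ junction with 0 reads. By the junctions on the 5′ side of the exons alone, the share was 24.2% and 14.6% in KO and 30.7% and 24.2% in WT, with KO replicate 1 and WT replicate 2 alike. By both junctions, KO replicate 1 lay among the WT libraries and KO replicate 2 was lower, so the groups did not separate beyond their spread, and an exact permutation test of 2 against 2 cannot give a p below 0.333.

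Junctions marked putative took 0.916% and 0.821% of the members' junction reads in KO and 0.805% and 0.912% in WT. The most used was a junction of Prpf8 (chr11:75310581-75321776) with 193 and 187 reads in KO and 85 and 251 in WT, or 27.0 and 26.9 per 1000000 known junction reads in KO and 17.4 and 29.1 in WT. It joins a pair of splice sites that known junctions of the gene also use, and the groups overlapped.

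The related splicing genes outside the core list also had mostly small negative log2 fold changes. Of 113 tested in 9 lists, 3 rose, 15 fell and 95 did not pass (15.9% called, against 20.8% over all genes), with a median log2 fold change of -0.18. Each fit without 1 library called fewer genes in each direction, over all genes as well as in these lists. Without KO replicate 2 none was called, without WT replicate 1 there were 1 rise and 2 falls, without WT replicate 2 there were 2 rises and 2 falls, and without KO replicate 1 there were 2 rises and 10 falls. With known junction reads in place of transcript reads, 1 of the 15 falls passed (Snrnp25), 12 did not and 2 had no value, while 2 of the 3 rises passed (Prmt5 and Ints9). For all 18 called genes, some fit with 3 libraries gave an adjusted p above the threshold.

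Among U2 and branch site factors, 3 of 14 fell and 0 rose. Phf5a, the gene of a small SF3B subunit, was at 68.6 and 68.6 CPM in KO and 99.2 and 94.3 CPM in WT (log2 fold change -0.50, edgeR adjusted p = 0.0182). The others were 0610009D07Rik, an older symbol of the SF3B subunit gene Sf3b6 in RefSeq (log2 fold change -0.49), and Zrsr1, a relative of U2af1 that lies inside an intron of Commd1 and could share its reads (log2 fold change -0.56). Of 15 partners of the tri-snRNP (U4, U5 and U6 joined), 4 fell, namely Cd2bp2, Prpf38a, Zmat2 and Snrnp27, with log2 fold changes of -0.42, -0.42, -0.38 and -0.40.

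Of 26 Prp19 complex and catalytic stage genes, 4 fell and 0 rose. They were the second-step factor gene Prpf18 at 87.3 and 86.7 CPM in KO and 122 and 133 CPM in WT (log2 fold change -0.55, edgeR adjusted p = 0.0161), Syf2 (-0.50), Crnkl1 (-0.38) and Bud31 (-0.56). Of 8 proteins of the minor spliceosome, which removes a rare class of introns, Zcrb1 (-0.56) and Snrnp25 (-0.71) fell. Of 8 genes of the exon junction complex, which marks spliced RNA, Eif4a3 (-0.52) and Sap18 (-0.86) fell. In the lists of 8 U1 partners and 6 LSm proteins outside the U6 ring, none was called by edgeR.

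The 3 rises lay in the lists of snRNP assembly and snRNA processing. Of 13 genes of the SMN complex and Sm assembly, which load the Sm ring onto snRNA, 2 rose and 0 fell. That is 15.4% called, and 11.4% of all genes were called higher. The median log2 fold change of these 13 genes was -0.16. For 6 of them both KO libraries lay below both WT libraries, and for 4 above, against 31.7% and 33.5% of all genes. Prmt5, the methyltransferase of Sm proteins, SmB among them, was at 132 and 146 CPM in KO, against 91.8 and 96.1 CPM in WT (log2 fold change 0.56, SE 0.11, edgeR adjusted p = 0.0164). Smn1, the core of the SMN complex, was at 26.5 and 28.0 CPM in KO, against 14.3 and 19.2 CPM in WT (log2 fold change 0.70, SE 0.16, edgeR adjusted p = 0.0262). Of 16 genes of snRNA capping, export, import and 3′ end processing, 1 rose and 0 fell (6.25% called). This was Ints9, an Integrator subunit, at 35.9 and 46.7 CPM in KO, against 22.5 and 23.9 CPM in WT (log2 fold change 0.83, SE 0.15, edgeR adjusted p = 0.0137).

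**Figure D4:**
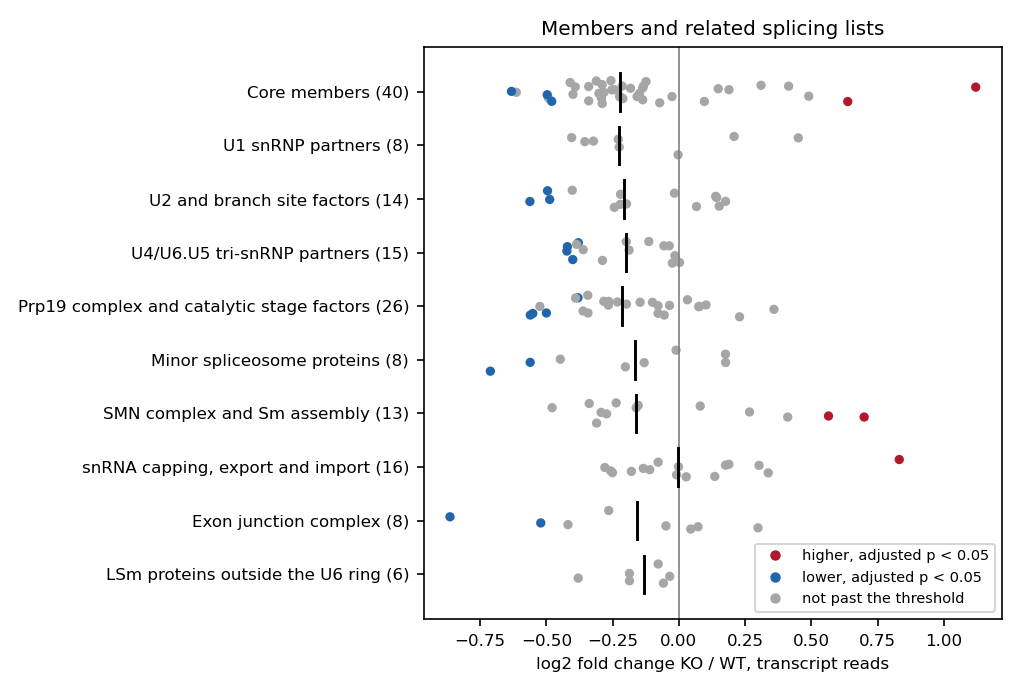
Log2 fold change of KO over WT for the 40 members and the tested genes of 9 related splicing lists, with 1 point per gene, the number of genes in parentheses and the median as a black bar. Every list median lies at or below 0, and the rises lie among the members, the Sm assembly list and the snRNA list.

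Base composition, cell cycle genes and cell type markers also differed with the direction of change or between the groups. The 8 members with a positive log2 fold change had a median of 55.2% G and C bases in their transcripts (range 50.9% to 62.2%), and the 30 of 32 members with a negative one that could be matched had a median of 49.4% (36.6% to 59.4%). Across the 38 members with a value, log2 fold change and G and C share had a Pearson r of 0.60 and a Spearman rho of 0.51, and r was 0.46 without Sf3a2 and Snrpb. Across 14384 genes the same r was 0.07 and rho 0.12. These are correlations across genes of the same 4 libraries, and genes are not independent replicates. Of 20 S phase genes 14 were lower in KO, with summed levels of 4034 to 4176 CPM in KO and 5560 to 6332 CPM in WT, and of 19 G2/M genes 14 were lower, with summed levels of 6774 to 8213 CPM in KO and 12225 to 12566 CPM in WT. Of 10 megakaryocyte markers 7 were higher, with summed levels of 1023 to 1237 CPM in KO and 667 to 718 CPM in WT. Of 10 granulocyte markers 4 were higher (1014 to 1337 CPM in KO and 675 to 806 CPM in WT), and of 9 endothelial markers 5 (885 to 951 CPM in KO and 598 to 631 CPM in WT). Of 10 macrophage markers 1 was higher and 2 were lower (514 to 644 CPM in KO and 577 to 807 CPM in WT). The part of base composition, of cell cycle genes and of the cell type markers in the members' differences was not tested.

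**Figure D5:**
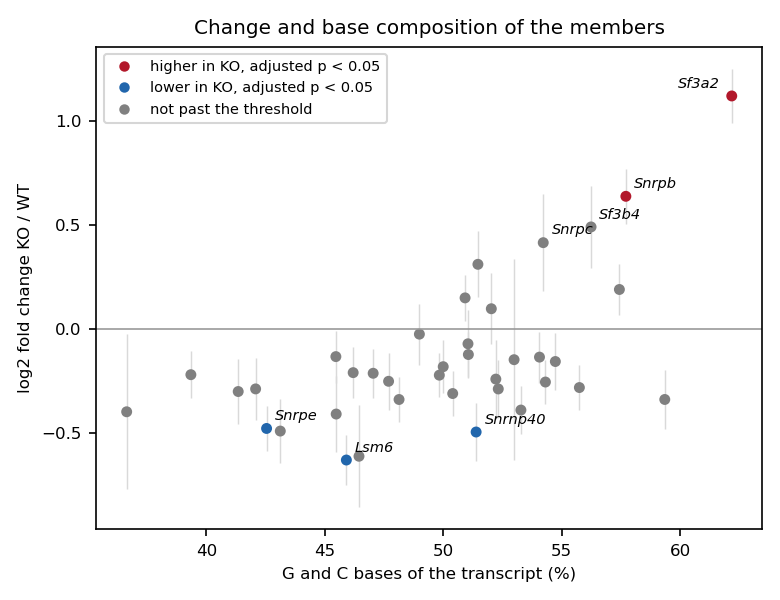
Log2 fold change of KO over WT (y axis, standard error as bars) against the share of G and C bases in the transcript (x axis) for 38 members. Sf3a2, at 62.2%, is highest on both axes, and Snrpe, Lsm6 and Snrnp40 lie at 42.5%, 45.9% and 51.4%.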

How the data were processed

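For each of the 4 libraries the authors deposited raw counts of reads per RefSeq transcript, made, per the file headers, from PRIMARY alignments under a mapping quality minimum of 10, with minScore at 0 and scoreClearZone at 5. The same deposited tables give RPKM and the reads per nucleotide, a coverage signal that was not used here. RPKM matched a recomputation from the counts in 100% of values. A second deposited table gives raw counts of reads per splice junction, marked known or putative. The files and labels used here name no aligner, build or rules for counting junctions. Positions are those of the files, save where GRCm38 is named. Junction positions are the exon bases on either side of the intron. Whether strand was used in counting is unknown, so overlapping genes can share reads, as can close copies.

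Gene levels were tested with edgeR 4.0.16 in R 4.3.3 (quasi-likelihood, TMM scaling, filterByExpr) with Benjamini-Hochberg adjustment over 15028 genes, and the threshold was an adjusted p of 0.05. The standard error is the log2 fold change divided by the square root of F. Junction usage was tested with diffSpliceDGE of edgeR on known junctions (minimum 10 reads, all libraries summed). Both tests were tested on simulated data first. The simulation used a fixed spread between libraries and large changes, so it does not show how small a change the tests could find here. Alternatives were DESeq2 1.42.0, limma 3.58.1 (voom), other scaling, no filter, reads summed over transcripts, known junction reads, leaving out each library and a block on the number that a KO and a WT file name share. The members and lists were chosen with earlier results of these data known. Per-library values are given for members past the threshold, for the 3 highest and 3 lowest by RPKM and for the 3 largest changes that did not pass. Some further members near these were chosen after their values were seen. From each related list up to 4 genes past the threshold are named. Promoter windows are RefSeq's (GRCm38.p6).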

Additional observations from a re-analysis of the deposited data

Results flagged for a closer look

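Putative junctions of the members entered no main comparison, and among those with at least 10 reads 2 were above the WT level in both KO libraries, 2 were below it in both and 11 overlapped. The same counts were not made over the putative junctions of all genes, so these are no result about the members. A Prpf19 junction (chr19:10972383-10979525) that passes over 13 known junctions had 7 and 18 reads in KO and 1 and 4 in WT, a mean of 1.79 per 1000000 known junction reads in KO and 0.334 in WT. It starts at the same splice site as the known Prpf19 junction whose share of the gene's reads was lower in both KO libraries. That known junction did not pass, and a link between these junctions was not tested. A Prpf8 junction (chr11:75314149-75318170) had 8 and 6 reads in KO and 1 and 3 in WT, a mean of 0.992 per 1000000 known junction reads in KO and 0.276 in WT. Of those below, a Snrpf junction (chr10:93046839-93052284) had 3 and 3 reads in KO and 5 and 10 in WT, and a Dhx15 junction (chr5:52562822-52581519) had 2 and 0 reads in KO and 3 and 7 in WT. With so few reads these are descriptions of 4 libraries, and none of the 4 passed when putative junctions were tested with the known ones by diffSpliceDGE of edgeR.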

How the results depend on the processing

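The count of members that fell was 3 and was 6 with DESeq2, 6 with no filter on low counts and 8 with the replicate block; it ranged from 0 to 6 over fits that left out 1 library. The count that rose was 2 and ranged from 1 to 2 over those fits. Related genes that fell numbered 15, but 1 by known junction reads, 23 with the replicate block and 0 to 10 without 1 library, and those that rose ranged from 0 to 2 without 1 library. Over all genes, 1711 were higher and 1419 lower in the main fit, and at most 2494 and 1999 over the alternatives. The counts of members and related genes were not set against all genes at each setting. Their changes between settings are therefore no result about these genes. Each fit without 1 library called fewer genes over all genes, in each direction, than the main fit. The cause was not tested. The members' median log2 fold change was -0.22 and ranged from -0.31 to -0.15 without 1 library. With junction minimums of 20 or 50 reads, with putative junctions, with the block and without any 1 library, 0 member junctions passed. The block used the number shared by file names, which the labels do not explain; the difference between replicates 1 and 2 correlated at 0.17 across 15028 genes between WT and KO, and 2 pairs cannot show that the numbers pair the samples. Signs changed, all without a call, for Cdc5l (0.0025) and Sf3b3 (0.0039) by known junction reads, for Lsm7 with limma voom (0.021), and without 1 library for Lsm7 (-0.63 to 0.48), Prpf6 (-0.14 to 0.39), Ddx23 (-0.26 to 0.0013), Lsm2 (-0.37 to 0.15), Prpf19 (-0.30 to 0.0014), Sf3b3 (-0.17 to 0.14) and Snrnp200 (-0.26 to 0.14). In 21 of 40 members every alternative kept the sign and the outcome, called or not called. Among these only Sf3a2 was called, and Snrpb, Snrpe, Lsm6 and Snrnp40 each lost the call under some alternative. With 2 libraries a group, and few reads on Lsm5, Lsm7 and Snrpg, small differences were not detectable.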
